A study of Mus musculus with 47 samples.

Results

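The cortex of R6/2(300Q) transgenic mice that had received 4b, an inhibitor of histone deacetylases, was compared with the cortex of R6/2(300Q) mice on the control treatment across all genes measured. The comparison rests on 8 of the 47 arrays, chosen by their labels: 4 arrays of 4b-treated transgenic cortex and 4 of control transgenic cortex, each hybridised with total RNA of 1 sample on an Illumina bead array. All mice were of the mixed background CBA x C57BL/6. The R6/2 transgene, which every animal of both groups carried, is a promoter and leading exon of the human huntingtin gene in which the CAG repeat is greatly lengthened, and the line serves as a model of Huntington's disease. Treated mice drank a solution of 4b at 1 mg/ml in place of water for 67 days from 4 months of age, and the labels do not say what the control mice received. Treated arrays 1, 2 and 4 and control arrays 1 and 2 came from females, and treated array 3 and control arrays 3 and 4 came from males. The labels do not state that the arrays came from separate mice, so every p-value reflects the spread among the samples as given, which may in part be technical.

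Histone deacetylases remove acetyl groups from histones and other proteins, and their inhibition raises acetylation and alters transcription of many genes. Mutant huntingtin is known to disturb transcription in neurons, and genes that signal neuronal identity are lost early in the cortex and striatum of such mice. Inhibitors of histone deacetylases have been studied as a way to counter that loss. Interferon-regulated genes, described below, are switched on by transcription factors that include STAT2 and IRF9, and acute-phase genes by inflammatory cytokines in liver, blood vessels and glia.

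Markers of the labelled tissue were present. Tbr1, a transcription factor of cortical excitatory neurons, lay between 10.87 and 11.44 (log2 intensity) on the 8 arrays and had means of 7.62 in striatum and 6.85 in cerebellum, whereas Drd2, a dopamine receptor of the striatal medium spiny neuron, lay between 6.45 and 7.42 and had a mean of 11.23 in striatum. The arrays' median intensities before normalization ranged from 124.3 to 163.4. After normalization, arrays correlated at 0.988 to 0.993 within a group and at 0.987 to 0.993 between the groups, and the leading principal components, which carried 25.8% and 18.4% of the variance of the 8 arrays, did not separate the groups. Probes of Y-linked genes on 9 female cortex arrays, which mark the level of a probe with no target, had a mean of 6.30 and reached 6.66. The 8 arrays lay on 4 BeadChips. BeadChip 1 held treated array 1 and control arrays 1 and 2, BeadChip 3 held treated array 4 and control array 3, and the other arrays shared no BeadChip with the opposite group. The number of arrays limits the precision of every value below.

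No gene differed between 4b-treated and control transgenic cortex after adjustment. Among 12052 genes and unnamed probes tested with limma over the 16 cortex arrays, 0 passed a Benjamini-Hochberg adjusted p under 0.05 (0%), and the smallest adjusted p was 1. At an unadjusted p under 0.05 the count was 257, or 2.13% of those tested, with 119 higher with 4b (0.987%) and 138 lower (1.15%). If no gene differed, a proportion of about 0.05 would fall under that threshold, so the count does not exceed what chance gives. All 4 treated arrays lay above all 4 control arrays for 115 genes (0.954%) and below them for 107 (0.888%). Most differences were small: the median over all genes was 0.002 on the log2 scale, the median absolute difference was 0.06, and 95% of the differences lay between -0.22 and 0.21. A difference over 1 in either direction was found for 12 genes. The 95% confidence interval excluded a 2-fold difference for 11906 genes (98.8%) and a 1.5-fold difference for 11503 (95.4%). The genes named below are therefore given as measured values with unadjusted p, and none of them passed the adjusted threshold.

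**Figure D1:**
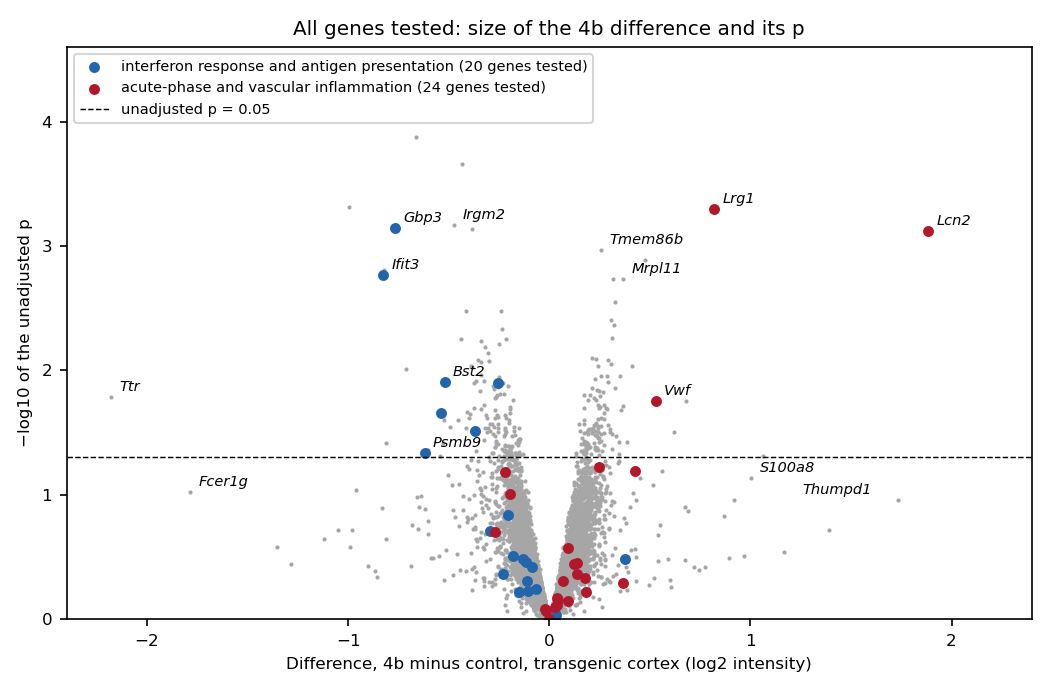
Each point is 1 of the 12052 genes or unnamed probes tested, placed by its difference between 4b-treated and control transgenic cortex (x axis, log2 intensity) and by the −log10 of its unadjusted p (y axis). Blue points are interferon and antigen presentation genes, red points are acute-phase genes, and the dashed line marks an unadjusted p of 0.05. Ifit3 and Gbp3 stand out on the lower side and Lcn2 and Lrg1 on the higher side. Fcer1g and Thumpd1 have large differences but lie below the line, with an unadjusted p above 0.05.

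The genes of the interferon response and of antigen presentation included several of the named genes with the smallest p. Of 29 genes listed, 24 were on the arrays and 20 were bright enough to be tested. None passed the adjusted threshold, 7 were lower at an unadjusted p under 0.05 (background 1.15%) and 0 were higher, and 18 of the 20 differences were negative, beside 5910 of all 12052 (49.0%). The median difference of the 20 was -0.19, beside 0.002 for all genes tested. The list is described by its counts, and no test of the list as a whole was made. It too was drawn up with earlier results of these data known.

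Ifit3, an antiviral protein induced by interferon that binds viral RNA complexes, had levels of 8.58, 8.46, 8.42 and 8.52 on treated arrays 1 to 4 and of 8.81, 9.02, 9.44 and 10.02 on control arrays 1 to 4. The groups did not overlap, and the control arrays were spread over more than a unit while the treated arrays lay close together. The difference was -0.83 (SE 0.22, 95% interval -1.29 to -0.36), a level 1.77-fold lower with an unadjusted p of 0.00172. Gbp3, a guanylate-binding GTPase induced by interferon, stood at 9.338, 9.353, 9.004 and 9.030 on the treated arrays and at 9.354, 10.201, 10.089 and 10.152 on the control arrays. Control array 1 lay beside the highest treated array and the other control arrays lay far above. The difference of Gbp3 was -0.77 (SE 0.19, unadjusted p 0.000723), or 1.7-fold.

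Irgm2, an interferon-inducible GTPase that acts on membranes of intracellular pathogens and was outside the list, showed the same arrangement with a smaller size. Its levels were 8.57, 8.28, 8.23 and 8.49 with 4b and 8.69, 8.85, 8.78 and 9.14 in controls, a difference of -0.47 (SE 0.11, unadjusted p 0.000677). Bst2, the membrane protein tetherin, stood at 9.36, 9.03, 9.45 and 9.65 with 4b and at 9.25, 10.17, 9.98 and 10.17 in controls, so that control array 1 lay among the treated arrays. The difference of Bst2 was -0.52 (unadjusted p 0.0125). Among the factors that drive these genes, Irf7 was lower by a difference of -0.25 (unadjusted p 0.0127) and Irf9, a DNA-binding partner of STAT2, by a difference of -0.37 (unadjusted p 0.0306), whereas Stat2 itself had a difference of -0.11 (unadjusted p 0.495). The remaining list members at an unadjusted p under 0.05 were Rsad2, the antiviral enzyme viperin, with a difference of -0.54, and Psmb9, a subunit of the immunoproteasome, with -0.62. Treated array 1 was at 6.35 for Psmb9, within the range of probes with no target.

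Among the histocompatibility genes of the list that were tested, only H2-D1 had a positive difference. B2m, the light chain of class I histocompatibility molecules, had a difference of -0.11 (unadjusted p 0.596), and the class I heavy chains H2-K1 and H2-D1 had differences of -0.20 and 0.38 (unadjusted p 0.147 and 0.329). For H2-D1, control array 4 was at 6.24, within the range of probes with no target. The fits without a single array gave H2-D1 differences from 0.041 to 0.518. H2-Ab1, a class II chain, had a difference of -0.30 (unadjusted p 0.196). Outside the list and besides Irgm2, 3 other interferon-regulated genes were among the 15 named genes with the smallest p on the lower side: Cd274, the checkpoint ligand PD-L1, at -0.31, Eif2ak2, the RNA-activated kinase PKR, at -0.39, and Parp14, an ADP-ribosyltransferase, at -0.39. The unadjusted p of these was 0.00725, 0.00925 and 0.00936. That they belong to the interferon response was noticed after their values were seen.

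**Figure D2:**
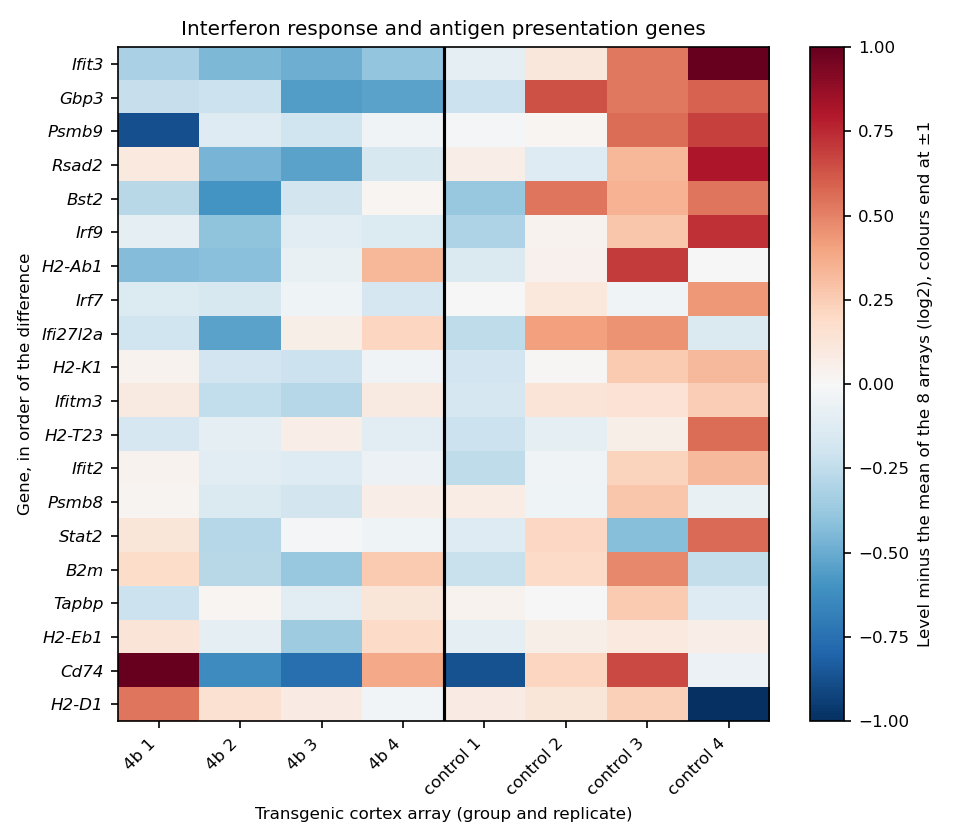
Rows are the 20 interferon and antigen presentation genes tested, in order of their difference, and columns are the 8 transgenic cortex arrays. Colour gives each level minus the gene's mean over the 8 arrays (log2), with colours ending at 1 unit either way. Control arrays 3 and 4 are high for most genes in the upper rows, and control array 1 is close to the treated arrays.

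The control arrays did not contribute equally. The mean level of the 20 genes was 8.47, 8.23, 8.28 and 8.5 on the treated arrays and 8.33, 8.62, 8.80 and 8.76 on the control arrays, so control array 1 lay inside the treated range. Without control array 4 the count of list members lower at an unadjusted p under 0.05 was 3 in place of 7, with 16 of 20 differences negative and a median of -0.16, while the share of all genes lower at that p was 2.21%. When the BeadChip entered as a fixed block the count was 4, with 15 negative (2.13% of all genes lower), and without treated array 2 it was also 4 (1.51%). Within BeadChip 1 the difference of Ifit3 between treated array 1 and the control arrays was -0.33 and that of Gbp3 was -0.44, and on BeadChip 3 they were -0.92 and -1.06. Over the 20 genes, 9 differences were negative on BeadChip 1 and 18 on BeadChip 3. Of the 7 members lower at an unadjusted p under 0.05, Rsad2 (0.127) and Irf9 (0.045) were positive on BeadChip 1. Microglia markers, which could carry some of these transcripts, had a median difference of -0.11, with 12 of 17 negative, and mean levels from 8.87 to 9.60 with 4b and from 9.21 to 9.63 in controls. In bulk tissue, fewer cells of a type and less RNA per cell cannot be told apart, and the part of microglia in the interferon values was not tested.

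The promoters of 4 of these genes are printed because they show the sequence that interferon-activated factors bind, the interferon-stimulated response element. Each line gives the 250 bases before the RefSeq transcription start in the table of build GRCm38.p6, written 5′ to 3′ on the gene's strand, and capitals mark matches to its core, TTTC followed by any 2 bases and TTTC again, on either strand. Where matches overlap, as in Gbp3 and Bst2, the capitals run on. Gbp3 has 2 starts in RefSeq, and the promoter of the other start held no match. The position of each promoter is chr19:34583279-34583528, plus strand, for Ifit3, chr3:142559794-142560043, plus strand, for Gbp3, chr11:58214727-58214976, plus strand, for Irgm2 and chr8:71537473-71537722, minus strand, for Bst2.
Ifit3: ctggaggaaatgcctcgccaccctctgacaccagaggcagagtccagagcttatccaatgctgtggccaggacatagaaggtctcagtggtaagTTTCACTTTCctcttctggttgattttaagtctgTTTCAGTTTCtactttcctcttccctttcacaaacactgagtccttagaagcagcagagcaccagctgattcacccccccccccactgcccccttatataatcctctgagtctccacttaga
Gbp3: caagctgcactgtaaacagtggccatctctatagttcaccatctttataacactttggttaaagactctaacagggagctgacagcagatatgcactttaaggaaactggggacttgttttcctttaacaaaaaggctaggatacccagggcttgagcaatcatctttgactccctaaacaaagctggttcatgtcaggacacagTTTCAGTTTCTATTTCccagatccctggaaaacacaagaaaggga
Irgm2: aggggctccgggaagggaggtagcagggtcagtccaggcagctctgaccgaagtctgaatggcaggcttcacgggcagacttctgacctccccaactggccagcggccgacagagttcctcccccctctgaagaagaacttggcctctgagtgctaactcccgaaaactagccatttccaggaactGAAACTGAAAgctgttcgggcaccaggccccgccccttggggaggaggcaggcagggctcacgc
Bst2: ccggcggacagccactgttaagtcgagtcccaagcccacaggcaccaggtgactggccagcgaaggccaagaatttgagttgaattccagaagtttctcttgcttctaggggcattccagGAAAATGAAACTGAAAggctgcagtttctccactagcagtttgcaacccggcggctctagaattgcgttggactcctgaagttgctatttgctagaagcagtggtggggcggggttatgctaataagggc

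In Ifit3 the 2 matches begin 156 and 122 bases before the start, and in Gbp3 45 and 39 bases before it. In Irgm2 a single match begins 64 bases before the start, and in Bst2 the overlapping matches begin 130 and 124 bases before it. Of the 20 list members tested, 17 had a promoter in the table and 7 of these held the core in at least 1 promoter, namely Ifit3, Gbp3, Bst2, Rsad2, Stat2, B2m and H2-T23. Of the 7 members lower at an unadjusted p under 0.05, 4 held it. Over all 27025 genes in the table the share was 3.46%. A match is a description of the letters and does not show binding.

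The same genes can be set beside the other groups. In wild-type cortex, 4b against control gave differences of -0.02 for Ifit3, -0.02 for Gbp3, -0.06 for Irgm2 and 0.05 for Bst2, and the list median was -0.02. In the test of whether the 4b difference itself differed between transgenic and wild-type cortex, 0 of 12052 genes passed the adjusted threshold (791 at an unadjusted p under 0.05, 6.56%). In that test Ifit3 had a difference of differences of -0.81 (unadjusted p 0.0197) and Gbp3 of -0.75 (unadjusted p 0.0108). In transgenic control cortex against wild-type control cortex, a comparison that uses the same 4 transgenic control arrays, Ifit3 was higher by 0.87 (adjusted p 0.0302), Gbp3 by 1.00 (adjusted p 0.00414), Irgm2 by 0.63 (adjusted p 0.00325) and Bst2 by 0.95 (adjusted p 0.00588). Because the control arrays are shared, and no BeadChip held control cortex of both genotypes, the 2 sets of values are given side by side only. The wild-type levels of Ifit3 were 8.437 ± 0.355 with 4b and 8.455 ± 0.297 without (SD, n = 4 each), close to the treated transgenic arrays. Other list members lay further from wild type. Rsad2 had means of 8.379 in treated transgenic cortex and 7.857 in wild-type controls, and Irf9 of 9.192 and 8.872. Psmb9 lay on the other side, at 6.915 and 7.157.

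**Figure D3:**
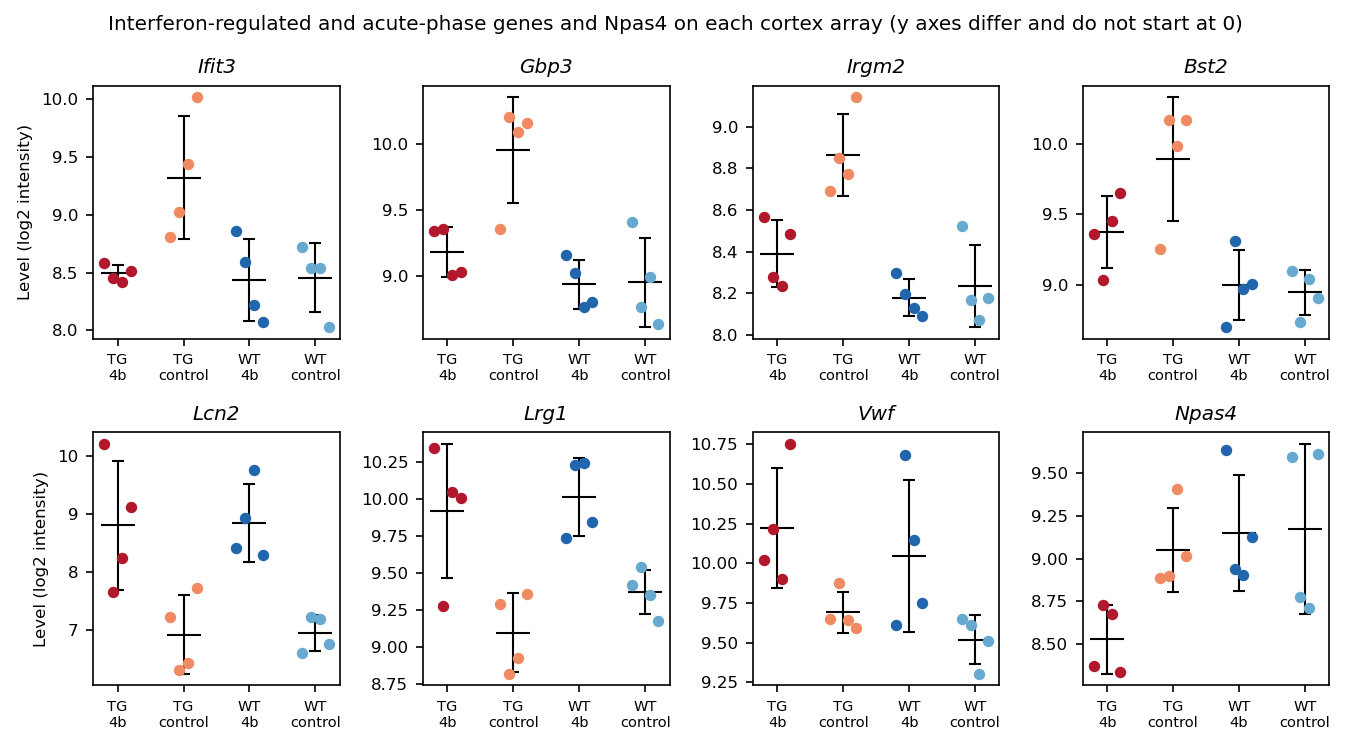
Each point is 1 cortex array (y axis, log2 intensity; axes differ between panels and do not start at 0), in 4 groups of transgenic (TG) or wild-type (WT) cortex with 4b or control treatment. Bars give the mean and SD of 4 arrays. Ifit3, Gbp3 and Irgm2 are high in transgenic controls relative to the other 3 groups, and Lcn2 and Lrg1 are higher with 4b in both genotypes.

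The acute-phase genes held the largest positive difference. Their list was drawn up with earlier results of these data known, so its counts are not independent of these values. Of 24 tested, 0 passed the adjusted threshold, 3 were higher at an unadjusted p under 0.05 (background 0.987%) and 0 were lower, and 18 differences were positive and 6 negative, with a median of 0.09, beside 6141 positive of all 12052 (51.0%). Lcn2, the secreted iron-siderophore binding protein lipocalin 2, had levels of 10.20, 7.64, 8.23 and 9.12 with 4b and of 7.22, 6.30, 6.42 and 7.72 in controls. Control arrays 2 and 3 were within the range of probes with no target, and control array 4 lay just above the lowest treated array. The difference of 1.88 (SE 0.46, 95% interval 0.92 to 2.85, unadjusted p 0.00076) was the largest positive one among all genes tested, at 3.69-fold. Lrg1, a leucine-rich glycoprotein released by inflamed endothelium, stood at 10.34, 9.28, 10.05 and 10.01 with 4b and at 9.29, 8.82, 8.93 and 9.36 in controls, a difference of 0.82 (SE 0.19, unadjusted p 0.000505). For both genes, treated array 2 overlapped the controls.

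Vwf, the von Willebrand factor of endothelial cells, stood at 10.02, 10.21, 9.90 and 10.75 with 4b and at 9.65, 9.88, 9.65 and 9.59 in controls. The groups did not overlap, and the difference was 0.53 (unadjusted p 0.0176). Hp, the hemoglobin scavenger haptoglobin, was 7.37, 7.23, 7.29 and 7.27 against 7.16, 6.95, 6.94 and 7.13, again with no overlap, and had a difference of 0.25 (unadjusted p 0.0597). S100a8, a calcium-binding protein of neutrophils, had a difference of 1.00 with an interval from -0.11 to 2.12. Of other members of the list, Ch25h had a difference of 0.43 (unadjusted p 0.0649), Serpina3n of 0.09 and Socs3, a feedback inhibitor of cytokine signaling, of 0.12. Saa3, an acute-phase serum amyloid, had a difference of -0.01. Its levels lay between 6.683 and 6.997, near the level of probes with no target. Of the granulocyte markers, 5 of 14 on the arrays were bright enough to be tested, and S100a9, Ngp, Mpo and Elane were below the filter. The endothelial markers had a median difference of 0.02, with 11 of 18 positive.

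Both leading acute-phase genes had differences of like size in every other tissue compared. Lcn2 had a 4b difference of 1.91 in wild-type cortex, 1.94 in transgenic striatum and 2.17 in transgenic cerebellum. Lrg1 had 0.64, 0.76 and 0.92 in the same order, and Vwf had 0.53, 0.60 and 0.74. The difference between the genotypes' 4b differences in cortex was -0.02 for Lcn2 (unadjusted p 0.973) and 0.18 for Lrg1 (unadjusted p 0.514, 95% interval -0.39 to 0.75). Within BeadChips the differences of Lcn2 were 3.44 on BeadChip 1 and 2.70 on BeadChip 3, those of Lrg1 were 1.29 and 1.08, and those of Vwf were 0.26 and 1.11.

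Genes of the glucocorticoid response, through which adrenal steroids act, had the highest list median, 0.17, with 18 of 22 differences positive, beside 51.0% of all genes. Of the 22, 1 was higher at an unadjusted p under 0.05 (0.987% of all genes), namely Sult1a1, a sulfotransferase, and 0 passed the adjusted threshold. Sult1a1 stood at 11.28, 10.49, 11.53 and 10.92 with 4b and at 10.47, 9.68, 10.15 and 11.19 in controls, a difference of 0.68 (unadjusted p 0.0177). Plin4, a lipid droplet protein, stood at 10.50, 9.58, 11.21 and 10.07 with 4b and at 10.42, 8.47, 8.20 and 10.62 in controls, and Cdkn1a, the cell cycle inhibitor p21, at 11.74, 9.53, 11.35 and 10.50 against 10.54, 9.92, 9.28 and 11.23. Treated arrays 1 and 3 and control array 4 were high for all 3 genes, so the groups overlapped, and the unadjusted p of Plin4 was 0.111 and that of Cdkn1a 0.212. The list rested on single arrays: without control array 4, 8 members were higher at an unadjusted p under 0.05 (1.64% of all genes in that fit), and without control array 2 (0.913%) or treated array 3 (0.88%) none were. Once BeadChip was a fixed block the count was 7, beside 2.46% of all genes.

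Among immediate early genes, which neuronal activity induces within minutes, 15 of 21 differences were negative, beside 49.0% of all genes. The median was -0.07, and 2 were lower at an unadjusted p under 0.05 (1.15% of all genes). Npas4, an activity-dependent transcription factor of neurons, stood at 8.37, 8.73, 8.67 and 8.34 with 4b and at 8.89, 8.90, 9.40 and 9.01 in controls. The groups did not overlap, and the difference was -0.52 (unadjusted p 0.0251). Egr2, a zinc finger factor of the same class, had a difference of -0.61 (unadjusted p 0.0441), with control array 4 at 8.88 and the other 7 arrays between 7.20 and 7.93. Once BeadChip was a fixed block, 0 members were lower and 2 were higher at that p, where 2.13% of all genes were lower and 2.46% higher.

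The targets of the compound had transcript levels that overlapped between the groups. Of 11 histone deacetylases listed, 10 were tested, 0 were at an unadjusted p under 0.05, and the differences ran from -0.13 for Hdac9 to 0.11 for Hdac4. Hdac1 stood at 9.43, 9.52, 9.59 and 9.57 with 4b and at 9.70, 9.80, 9.48 and 9.54 in controls, a difference of -0.11 (95% interval -0.35 to 0.135). Hdac3 stood at 12.13, 12.07, 12.02 and 11.92 against 11.88, 12.13, 11.99 and 12.12, a difference of 0.01 (95% interval -0.17 to 0.19). Corepressors that recruit these enzymes had a median of 0.02 over 20 genes, and histone acetyltransferases and bromodomain readers of 0.035 over 10. Genes that HDAC inhibitors are known to induce or repress in cultured cells had a median of 0.03 over 16 genes, with 10 positive and none at an unadjusted p under 0.05. Because the list mixes both directions, its median and signs cannot show whether such a response took place. The highest of them was Cdkn1a, which is also on the glucocorticoid list, at 0.54. The metallothionein Mt1 had a difference of 0.04, the growth arrest gene Gadd45b 0.04 and the cyclin Ccnd1 -0.11.

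**Figure D4:**
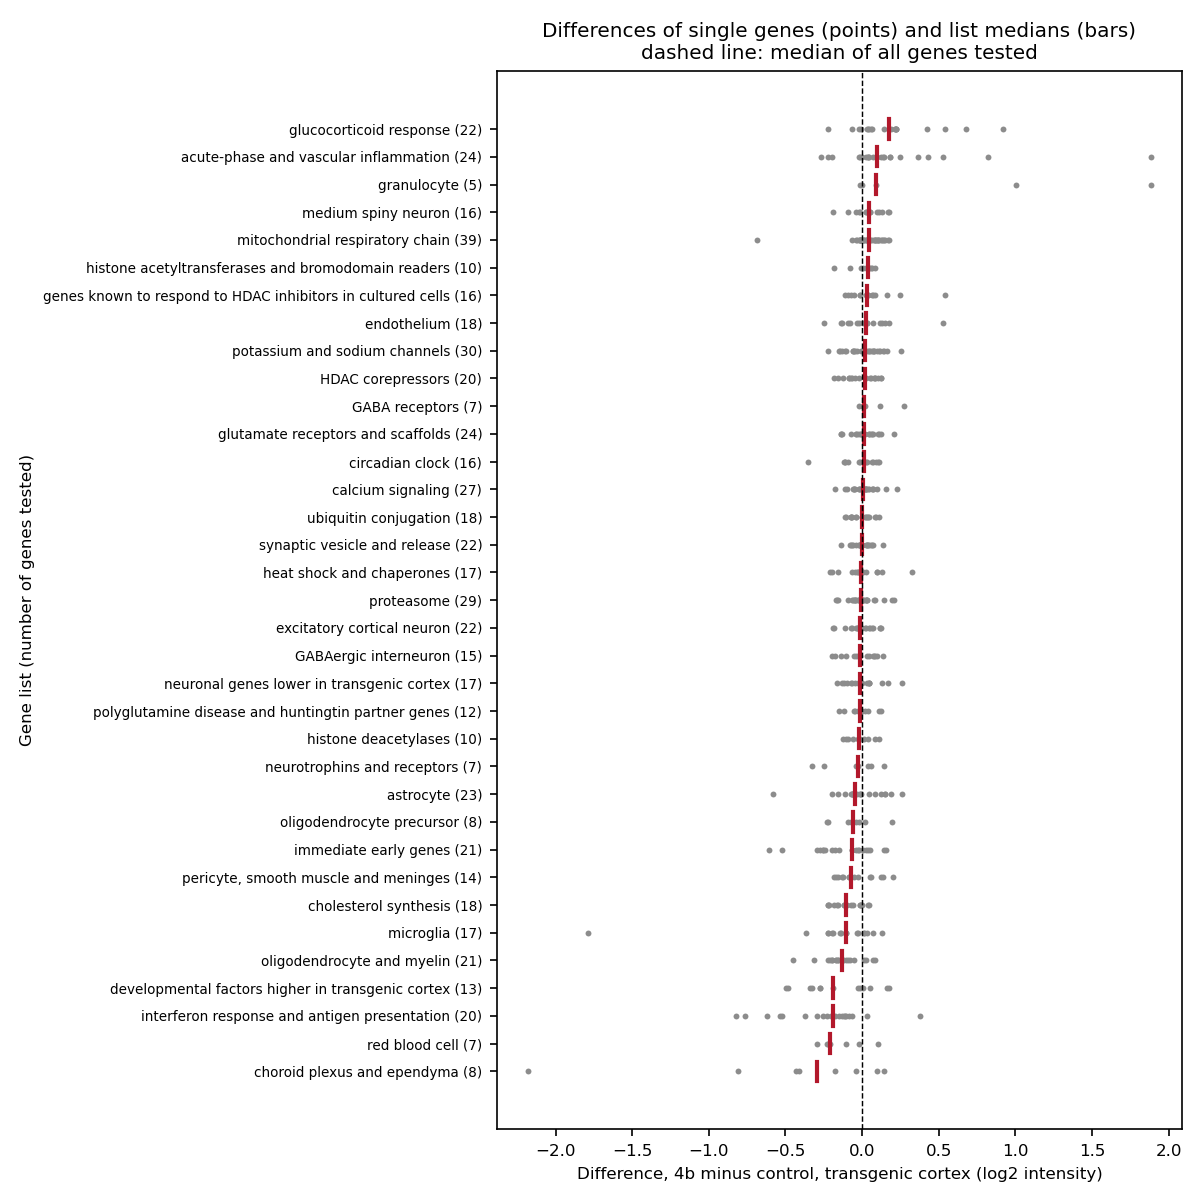
Each grey point is the difference of 1 gene between 4b-treated and control transgenic cortex (x axis, log2 intensity), each row is a gene list with its number of genes tested, and red bars are list medians. The dashed line is the median of all genes, 0.002. The medians run from -0.295 for choroid plexus markers to 0.17 for the glucocorticoid response, and most lie within 0.10 of the dashed line.

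Genes of the disease itself were examined next, by the size of their difference between transgenic and wild-type control cortex. That comparison called 614 of 12052 genes (5.09%), 190 higher (1.58%) and 424 lower (3.52%), and shares the transgenic control arrays with the 4b comparison, so both values are given with no overlap drawn. Hoxb5, a homeobox factor of the embryonic hindbrain, was higher by 3.41 in transgenic controls than in wild type and stood at 9.29, 10.07, 9.81 and 9.40 with 4b and at 10.01, 9.43, 10.66 and 9.83 in controls, a 4b difference of -0.34 (unadjusted p 0.114). Its wild-type means were 6.57 with 4b and 6.58 without, so treated and control transgenic arrays alike lay far above wild type. Twist1, a mesodermal transcription factor, had a genotype difference of 2.43 and a 4b difference of -0.28 (unadjusted p 0.0557), and Barx1, a homeobox factor of developing stomach and face, had 2.29 and -0.49 (unadjusted p 0.0285). Shox2, En2 and Irx5, also developmental homeobox factors, had 4b differences of -0.33, -0.27 and -0.01. Control array 3 was the highest of the 8 arrays for each of these 6 genes. Over the 13 tested members of a list of developmental factors, which had been chosen on these same arrays, 9 differences were negative and the median was -0.19, and without control array 3 the median was -0.015.

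The genes named here that were lower in transgenic controls had 4b differences smaller in size than their genotype differences. Plk5, a polo-like kinase of neurons and glia, was lower by a genotype difference of -1.98 and had a 4b difference of -0.16 (95% interval -0.55 to 0.23). Ppp1r1b, the dopamine- and cyclic AMP-regulated phosphoprotein DARPP-32, had -1.14 and 0.13 (95% interval -0.17 to 0.43), and Mfge8, a secreted phosphatidylserine-binding glycoprotein, had -1.20 and 0.01 (95% interval -0.16 to 0.19). Pdyn, which encodes prodynorphin, stood at 8.94, 8.99, 9.14 and 9.02 with 4b and at 8.86, 8.86, 8.85 and 8.85 in controls, with no overlap and a 4b difference of 0.17 (unadjusted p 0.0474), beside a genotype difference of -0.78 and a wild-type control mean of 9.63. Ccdc3, a secreted coiled-coil protein, stood at 10.60, 10.84, 10.75 and 10.91 against 10.27, 10.31, 10.60 and 10.60, a 4b difference of 0.33 (unadjusted p 0.0335) beside a genotype difference of -1.15. Slc1a2, the main astrocytic glutamate transporter, had a 4b difference of 0.26 (unadjusted p 0.0829) and Etnppl, an astrocyte phospholyase, of 0.56 (unadjusted p 0.065). The Slc1a2 levels on the treated arrays lay between 6.86 and 7.26, not far above the 6.66 that probes with no target reached. A list of 17 genes lower in transgenic cortex, chosen on these arrays, held neuronal genes and also astrocyte and cholesterol synthesis genes. Its median 4b difference was -0.015, with 8 positive and 9 negative. Huntingtin itself, as the mouse gene Htt, had a difference of -0.05 (95% interval -0.28 to 0.18), and Bdnf, the neurotrophin of cortical neurons, of 0.14 (95% interval -0.16 to 0.44).

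**Figure D5:**
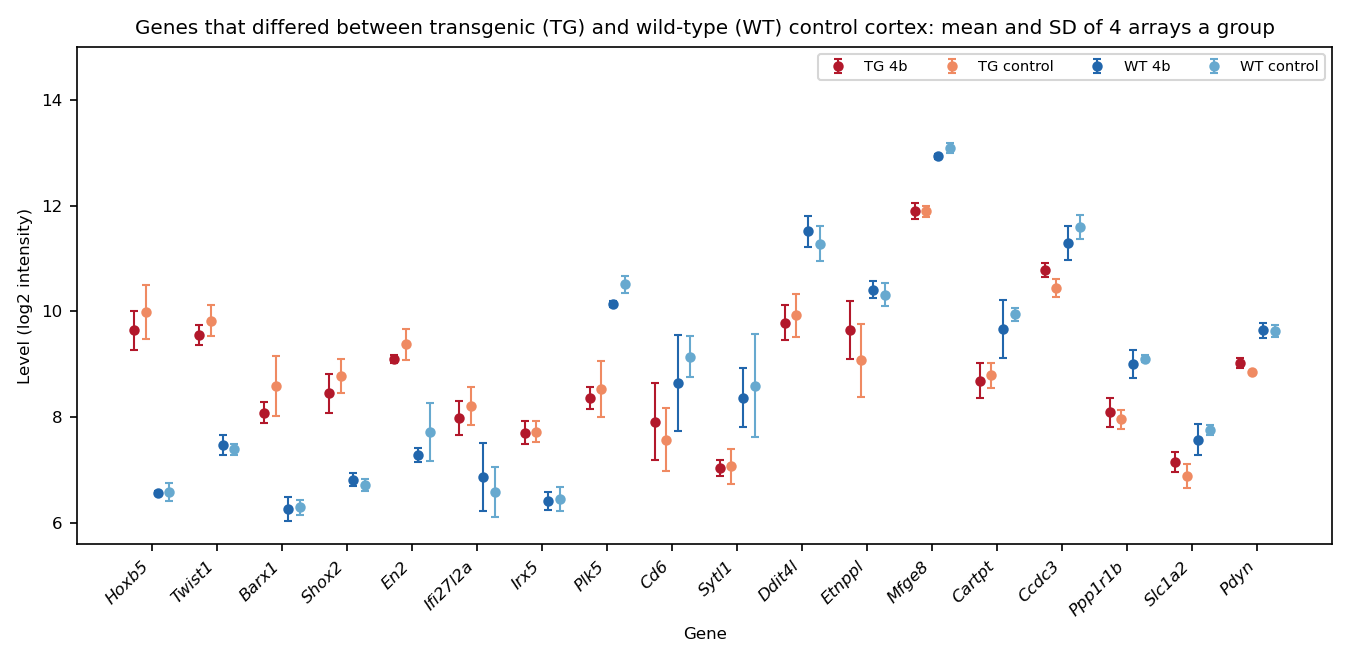
Mean and SD of 4 arrays (y axis, log2 intensity, not starting at 0) for 18 genes that were higher (left) or lower (right) in transgenic (TG) than in wild-type (WT) control cortex, in the 4 cortex groups. For each gene the treated and control transgenic means lie closer to each other than to either wild-type mean.

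Outside the listed pathways, the named genes with the smallest p had differences under 0.5. Mrpl11, a protein of the mitochondrial ribosome, stood at 11.45, 11.27, 11.34 and 11.40 with 4b and at 10.96, 10.99, 11.10 and 10.93 in controls, with no overlap and a difference of 0.37 (unadjusted p 0.00185). Smarcd3, a subunit of the BAF chromatin remodeling complex, stood at 10.77, 10.80, 10.80 and 10.90 against 10.44, 10.40, 10.61 and 10.59, a difference of 0.31 (unadjusted p 0.0055). Both had the opposite sign in wild-type cortex, at -0.27 and -0.28, and the genotypes' 4b differences were apart by 0.64 and 0.59 (unadjusted p 0.000299 and 0.000498), which did not pass the adjusted threshold. Tmem86b, a lysoplasmalogenase, had a difference of 0.26 (unadjusted p 0.00107) and Sigirr, an inhibitory receptor of interleukin-1 signaling, of 0.33 (unadjusted p 0.00283). On the lower side, Fam107b stood at 8.47, 8.56, 8.38 and 8.41 with 4b and at 8.72, 8.70, 8.63 and 8.72 in controls, a difference of -0.24 (unadjusted p 0.00334). Pde3b, a phosphodiesterase that degrades cyclic AMP, had a difference of -0.24 (unadjusted p 0.00467) and Pdk1, an inhibitory kinase of pyruvate dehydrogenase, of -0.21 (unadjusted p 0.0056). The smallest p of all, 0.000132, belonged to the unnamed probe ILMN_1229455, with a difference of -0.66. A further unnamed probe, ILMN_1256257, had a difference of -0.996 with control array 4 highest, at 10.24.

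The lists of respiratory chain, synaptic and ion channel genes lay near the median of all genes. Over all genes tested, 51.0% of the differences were positive and 49.0% negative. Respiratory chain genes had a median of 0.045 over 39, with 29 positive, synaptic vesicle genes of -0.004 over 22, glutamate receptors and scaffolds of 0.01 over 24, and potassium and sodium channels of 0.02 over 30. Genes of cholesterol synthesis had a median of -0.10, with 15 of 18 negative and Idi1, an isomerase of that pathway, at -0.22 (unadjusted p 0.0449). Oligodendrocyte and myelin genes had a median of -0.13, with 17 of 21 negative and none at an unadjusted p under 0.05, and their mean levels overlapped, from 11.12 to 11.69 with 4b and from 11.42 to 11.69 in controls. Excitatory neuron, interneuron and astrocyte markers had medians of -0.013, -0.015 and -0.047.

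Several of the largest differences rested on single arrays. Ttr, which encodes transthyretin and is made by the choroid plexus, stood at 10.86, 8.63, 8.65 and 8.79 with 4b and at 10.32, 14.39, 9.41 and 11.52 in controls, a difference of -2.18 (unadjusted p 0.0165), the largest of all. Clic6, a chloride channel protein of the same epithelium, was 9.34 on control array 2 and between 6.74 and 7.71 on the other 7 arrays, and Kl, the klotho protein, was 8.56 on control array 2. The 8 choroid plexus markers tested had mean levels of 7.38 to 7.97 on the treated arrays and of 7.70, 9.10, 7.51 and 7.99 on the control arrays. Without control array 2 their median difference was -0.016 in place of -0.295.

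Of the 12 genes with a difference over 1 in either direction, 9 had their 8 values split into a high and a low set by a gap of at least 2 log2 units, an arrangement found in 31 of all 12052 genes (0.257%) and defined after the values were seen. Thumpd1, a tRNA-binding protein, stood at 6.84, 10.11, 10.20 and 10.15 with 4b and at 6.62, 6.72, 6.75 and 10.27 in controls. Fcer1g, the common gamma chain of Fc receptors and a microglial gene, stood at 10.22, 6.22, 6.56 and 9.89 with 4b and at 10.35, 10.69, 9.79 and 9.21 in controls, so that both arrays of BeadChip 5 were low. Abhd16a, a phospholipase, was 6.89 on treated array 1 and between 11.24 and 12.38 on the other 7. In these 3 genes the low arrays lay between 6.22 and 6.89, near the level of probes with no target. In 0 of the 31 did the split coincide with the treatment groups, and 1 of the 31, Ttr, had an unadjusted p under 0.05. In 4 of the 31 the split followed the BeadChips, in that no BeadChip held arrays on both sides of the gap. The cause of the splits was not tested for any of the 31. The 3 genes with a difference over 1 and no such split were Lcn2, S100a8 and Sdc4, a heparan sulfate proteoglycan, which stood at 10.93, 10.29, 10.28 and 10.95 with 4b and at 8.59, 8.65, 9.99 and 10.96 in controls.

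The 4b difference in transgenic cortex was also tested against that in the other transgenic regions. Against striatum, 0 of 11658 genes passed the adjusted threshold (96 at an unadjusted p under 0.05, 0.823%). Against cerebellum, 1 of 11505 passed (0.00869%), with 296 at an unadjusted p under 0.05 (2.57%). That gene was Clic6, with a difference of differences of -3.72 (limma adjusted p 0.0412), and of the fits that left out a single array, only those without cortical control array 1 or 3 or cerebellar control array 1 kept the call. The choroid plexus markers had values of the same direction: their median 4b difference was 2.59 in transgenic cerebellum and -0.295 in cortex. Kl and Sostdc1, which mark the same epithelium, had differences of differences of -3.88 and -3.92 (adjusted p 1 each). The part of choroid plexus tissue in the Clic6 value was not tested. The interferon list had median 4b differences of -0.23 in transgenic striatum and -0.14 in transgenic cerebellum, beside -0.19 in cortex, and none of its genes differed between regions after adjustment.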

How the data were processed

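Total RNA of the samples had been extracted with Trizol, labelled with biotin and hybridised to Illumina mouse bead arrays, per the labels' protocols. The authors' deposited table of intensities was not normalized between arrays and, per the submitters' processing notes, was exported from BeadStudio (no version stated there). A deposited table of log2 values differed by at most 0.0115 from log2 quantile-normalized intensities computed here, and it served as an alternative. Of the intensity columns, 1 could not be tied to any sample and was left out.

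The intensities of 24613 probes were background-corrected with normexp (offset 50), quantile-normalized over 47 arrays and put on the log2 scale in R 4.3.3 with limma 3.58.1. The probe with the highest mean over all arrays stood for each gene, which left 19596 genes and unnamed probes. The 12052 with a cortical mean above the 40th percentile were tested, 10249 of them with a symbol. A limma model (lmFit, eBayes, two-sided) held the 16 cortex arrays in 4 groups, and p-values were adjusted by Benjamini-Hochberg at 0.05. Comparisons with other regions used all 47 arrays. The test was run on simulated data beforehand.

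Named genes were the 15 higher and 15 lower with the smallest p and up to 4 members of each of 35 lists with the smallest p. To these were added a fixed set and the 8 largest rises and falls of the genotype comparison. The fixed set held Huntington's disease genes and also Hdac1, Hdac3, Cdkn1a, Lrg1 and Lcn2. The rule also covered genes called under an alternative, of which the comparison of 4b with control had none. Genes called under an alternative in the other comparisons were not added on that ground. A part of them is given, and other list members and the genes with a difference over 1 were added after their values were seen. The comparison and the lists were chosen with earlier results of these data known. No probe was matched to Ube2e3 of the fixed set. Array replicate numbers did not pair the samples. Figures were drawn in Python 3.11.15 with matplotlib 3.10.9.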

Additional observations from a re-analysis of the deposited data

Results flagged for a closer look

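Of 354 groups of 4 arrays examined among 177 named genes, 15 held an array that stood far from the other 3 by Dixon's 95% criterion, where chance gives about 1 in 20. Among genes of the report, Gbp3 was 9.35 on control array 1 with the other controls from 10.09 to 10.20, Ttr was 10.86 on treated array 1 with the others from 8.63 to 8.79, Pde3b was 7.86 on treated array 3 with the others from 7.75 to 7.76, and Slc1a2 was 6.86 on treated array 4 with the others from 7.23 to 7.26. Kl, the choroid plexus gene, was 8.56 on control array 2 with the others from 6.99 to 7.07. Control array 2 also stood apart for the metalloproteinase Mmp9 at 7.69 and the acetyltransferase Kat8 at 10.82. Control array 4 stood apart for the immediate early gene Egr4 at 12.19, with the others from 11.32 to 11.46, and for the sterol demethylase Cyp51 at 9.62. Control array 3 stood apart for the olfactory receptor Olfr94 at 7.28 and the vesicle protein gene Sytl1 at 7.56, and control array 1 for Gphn, the scaffold of inhibitory synapses, at 10.66. Treated array 2 stood apart for the interneuron factor Dlx1 at 10.78, treated array 3 for the water channel gene Aqp4 at 11.63, with the others from 12.12 to 12.19, and treated array 1 for the bromodomain gene Brd7 at 10.34.

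In the fit as reported, Clic6 was the only gene whose 4b difference in transgenic cortex differed from that in another transgenic region after adjustment, at -3.72 relative to cerebellum (limma adjusted p 0.0412). The fit on the compared groups only called 26. The choroid plexus markers, of which Clic6 is a member, had a median 4b difference of 2.59 in transgenic cerebellum and -0.295 in cortex.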

How the results depend on the processing

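In the comparison of 4b with control in transgenic cortex, 0 genes passed the adjusted threshold in the reported fit, in each of the other settings run and without each array in turn. The count at an unadjusted p under 0.05 was 257 of 12052. It ranged from 134 of 8406 with the filter at the 60th percentile to 610 of 19596 with no filter, so these settings tested different numbers of genes. Over 12052 genes it was 160 with median scaling and 417 with array weights. With the BeadChip as a fixed block it was 553 (2.46% higher and 2.13% lower). That block over 47 arrays, added after seeing the data, gave 147, and leaving out a single array gave 225 to 464. In these fits the replicate number as a block gave 254 and 0 adjusted calls. The numbers did not pair the samples: deviations of same-numbered arrays correlated at 0.04, 0.07, 0.03 and -0.31. The difference between the genotypes' 4b differences gave 0 calls, and 16 (13 higher, 3 lower) with the BeadChip as a fixed block. The difference from cerebellum gave 1 call, 4 with array weights, 26 with the compared groups only, and 0 with the stricter filter, with an intensity trend and robust eBayes, with the BeadChip as a fixed or a random block and with the replicate block. Without single arrays it gave 0 to 1. Within BeadChip 3, where 1 treated and 1 control array met, 29 of 177 named genes had the opposite sign to the pooled value, and within BeadChip 1 it was 20. Among 237 genes recomputed, those with the opposite sign and a pooled unadjusted p under 0.05 were Olfr94 (-0.03), Cx3cr1 (0.003) and Clic6 (0.128) on BeadChip 3 and Irf9 (0.045) and Rsad2 (0.127) on BeadChip 1. Of their differences under the other settings, 5650 moved by less than the spread between replicates and 204 by more. The cause of these shifts was not tested. Signal over background limits the values of dim genes: the control mean of Lcn2 was 6.92, where Y-linked probes reached 6.66 on female cortex arrays.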

Other observations

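Among gene groups not described above, the circadian clock genes had a median difference of 0.009 over 16, and the nuclear receptor Nr1d2, a repressor of the clock loop, had the lowest value, -0.35 (unadjusted p 0.0693). The small heat shock protein Hspb1 had the highest difference among heat shock genes and chaperones, 0.32 (unadjusted p 0.149), and the chaperone median was -0.007 over 17. Neurotrophins and their receptors had a median of -0.026 over 7, with Gfra1, the receptor subunit for GDNF, at -0.33 (unadjusted p 0.102) and Gfra2, its neurturin-binding relative, at -0.25 (unadjusted p 0.0486, adjusted p 1 by limma). Ubiquitin conjugation and proteasome genes had medians of -0.002 over 18 and -0.009 over 29. Red blood cell genes had a median of -0.21 over 7, with 6 negative and 0 at an unadjusted p under 0.05.

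After ILMN_1229455, the unnamed probe with the smallest p was ILMN_2655721, with a difference of -0.43 (unadjusted p 0.000221). Among unnamed probes with a positive difference it was ILMN_1239632, at 0.47 (unadjusted p 0.00129).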
